A study of Rattus norvegicus with 14 samples.

Results

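Cytochrome P450 enzymes (P450s) are haem proteins that insert an atom of molecular oxygen into their substrates. Families CYP1, CYP2 and CYP3 are best known for the clearance of drugs, dietary chemicals and other foreign compounds, mostly in the liver and also in the gut epithelium, where food and bacterial products first meet the body. The CYP4 family hydroxylates the end of fatty acids and of lipid mediators, and other P450s make or break down vitamin D, bile acids, steroid hormones and retinoic acid. The P450 genes described here were chosen by name from the array design: every non-control probe whose gene name starts with Cyp, a family number, a subfamily letter and a member number, leaving out Cyp51, a sterol synthesis enzyme. This gave 77 P450 genes with 94 probes of the 26276 gene names and 30367 probes on the array.

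Colonocytes, the lining epithelial cells of the colon, came from male Wistar rats fed ad libitum for 15 days with a normal-protein diet (NPD, 14% of energy from protein) or an isocaloric high-protein diet (HPD, 55% of energy). Each group held 7 rats with 1 array per rat, and the cells were detached from the perfused colon with EDTA, which gives a preparation of epithelium rather than a sorted cell type. RNA was labelled with a single dye (Cy3) and hybridised to Agilent arrays of 60-base probes. Values are log2 spot signals minus the median of the array, so a difference of 1 is a doubling of signal, and a negative value is a signal below the array median.

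The arrays lay on 2 slides, with 4 NPD and 3 HPD arrays on slide 1 and 3 NPD and 4 HPD arrays on slide 2. When slide was fitted along with diet, it differed for 14 of the 32 P450 genes measured as defined below (43.8%, against 54.5% of all measured genes), at a Benjamini-Hochberg adjusted p (q-value) below 0.1. The median net signal was higher on the NPD arrays, with a lowest, median and highest value of 66.0, 84.7 and 100 against 53.5, 67.3 and 75.1 for HPD (p = 0.00524 by an exact two-sided permutation test). After centring, the median difference over all probes was 0.11 in favour of HPD on the log2 scale, and it was 0.01 after quantile normalization. The part of slide and of array brightness in the differences below was not tested beyond the values given beside them.

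All 12 listed colonocyte markers, among them Epcam, Cdh1, Krt20, Car1 and Cdx2, were above background throughout. The liver genes Alb, Fgb and Tat were above background on no array, while Apoa1 was on every array, Ttr on 7 NPD and 6 HPD arrays and Serpina1 on 2 of each diet. In all 6 goblet cell markers the signal was above background on every array, and their summed linear signal, in multiples of the array median, spanned 4910 to 7390 with NPD and 3840 to 9720 with HPD. Agr2 (-0.63, unadjusted p = 0.0182, q = 0.417) and Clca1 (-0.56, unadjusted p = 0.0403, q = 0.429) had the most negative differences (HPD minus NPD) of that list, whereas Spdef was at 0.40 (q = 0.459) and Muc2 at 0.01 (q = 0.980), and Tff3 and Fcgbp did not pass an unadjusted p of 0.05 either. Of the immune markers 5 of 8 were above background on every array, among them Ptprc and Cd68, and of the stromal and muscle markers 6 of 7, with Col3a1 on none. The summed immune signal spanned 17.5 to 54.9 with NPD and 16.9 to 23.6 with HPD, and the stromal and muscle signal 12.3 to 27.1 and 11.2 to 20.4. Single members of these lists and of the colonocyte list also had an unadjusted p below 0.05. Below NPD lay the colonocyte marker Krt19 (-0.36, q = 0.417), the immune marker Lyz2 (-0.56, q = 0.425) and the muscle marker Myh11 (-0.48, q = 0.419). Above it lay the stromal markers Col1a1 (0.35, q = 0.417) and Col3a1, the latter below background. The other members of these lists did not pass. Of the red blood cell genes, Hbb was above background on 7 NPD and 6 HPD arrays, and Alas2 on 2 HPD arrays. Their summed signal spanned 0.836 to 12.2 with NPD and 0.203 to 42.8 with HPD, and neither gene had an unadjusted p below 0.05. The part of other cell types in the P450 values was not tested, and fewer cells of a type cannot be told apart from less RNA per cell.

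In the colonocyte preparation a limited set of the P450 genes gave signal above background, among them members of the CYP2 and CYP4 families and none of CYP1. A probe below background does not show that its gene is silent. A gene was called measured when its brightest probe was marked well above background on all arrays of 1 diet group or of both. By this rule 32 of the 77 P450 genes were measured (41.6%, against 59.7% of all gene names), 9 were above background on some arrays, and 36 on none. Of the 32, 29 were above background on all 14 arrays, and Cyp2b3, Cyp2d2 and Cyp8b1 passed through a single diet group. Between 33 and 37 P450 genes (median 35) were above background on an NPD array and between 32 and 37 (median 34) on an HPD array.

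**Figure D1:**
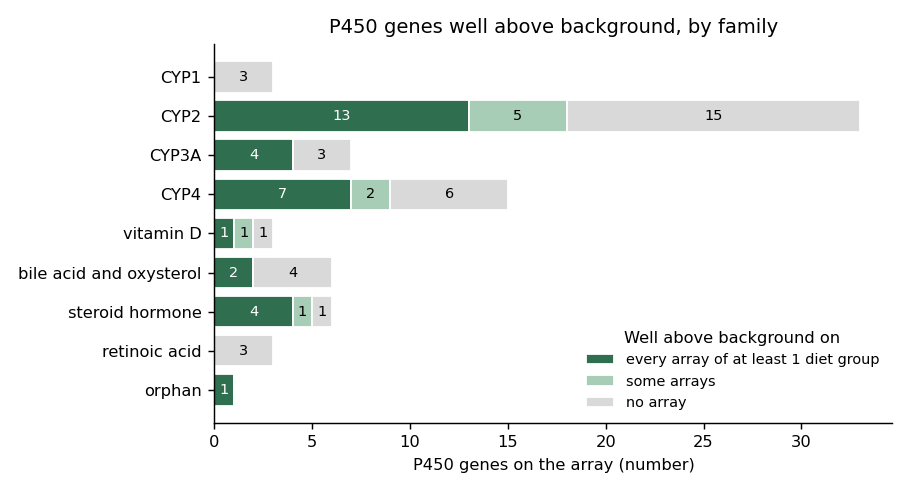
Number of P450 genes of each family on the array (x axis) whose brightest probe was well above background on all arrays of 1 diet group or of both (dark green), on some arrays (light green) or on none (grey). CYP2 (13 measured of 33) and CYP4 (7 of 15) hold most of the measured genes, and none of the CYP1 and retinoic acid genes was above background on any array.

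None of the 3 CYP1 genes, Cyp1a1, Cyp1a2 and Cyp1b1, which are the classical targets of the aryl hydrocarbon receptor, was above background on any of the 14 arrays. In the CYP2 family 13 of 33 genes were measured, from the subfamilies 2b, 2d, 2f, 2j, 2s, 2t, 2u and 2w. No member of the 2a subfamily and neither Cyp2e1 nor Cyp2g1 was above background, and of the 2c subfamily only Cyp2c79 (6 NPD and 6 HPD arrays), Cyp2c11 (1 NPD array) and Cyp2c6v1 (1 HPD array) were on any array. In the CYP3A subfamily, which oxidises a large share of drugs and steroids, 4 of 7 genes were measured (Cyp3a9, Cyp3a18, Cyp3a62 and Cyp3a73). Cyp3a2 and Cyp3a23/3a1, known from rat liver, were not above background. In CYP4, 7 of 15 genes were measured, 5 of them from the 4f subfamily. Of the bile acid genes, Cyp27a1 and Cyp8b1 were measured, while Cyp7a1, the rate-limiting enzyme of bile acid synthesis in liver, Cyp7b1, Cyp39a1 and the cholesterol hydroxylase gene Cyp46a1 were above background on no array. The 3 retinoic acid hydroxylases Cyp26a1, Cyp26b1 and Cyp26c1 were likewise below it throughout.

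No P450 gene was called differentially expressed between the diets (0 of 77 in the limma fit at a q-value below 0.1, where 0.0533% of all genes were called), and the lowest q-value over the named genes was 0.417. The study reports far more differentially expressed genes at the same threshold, from its own processing of these arrays. Its gene list is not set beside these calls, and why the numbers differ was not tested. At an unadjusted p below 0.05, 5 of the 77 lay above NPD (6.49%, against 6.05% of all genes) and 0 lay below it (against 5.48%). Among the 32 measured genes these counts were 4 (12.5%, against 5.47% of all measured genes) and 0 (against 8.31%). The measured genes had a median difference of 0.20 on the log2 scale, beside 0.06 over all 15699 measured genes. The median of the 32 was 0.07 with normexp correction and also in the authors' deposited table. Over all probes or rows, including those below background, the median was 0.07 with normexp and 0.05 in the deposited values. In the main fit that wider median was 0.11. The median over all measured genes was not taken in these 2 settings, so the 0.07 of the P450 genes has no like value beside it. In the main fit 22 of the 32 had a mean above that of NPD (68.8%, against 58.2%). Cyp2b3 counts among the 32 through the HPD arrays alone, and Cyp2d2 and Cyp8b1 through the NPD arrays alone. In each gene this was the group with the higher mean, so these directions are partly set by the filter. In genes above background on no array, the median was 0.23 for P450 genes and 0.23 over all genes. No P450 gene had diet groups that did not overlap (0 of 77, against 0.282% of all genes). With slide as a block in the same fit, again 0 P450 genes were called, where 0.0913% of all genes were. The call rate over the measured genes alone was 0 of 32, against 0.0764%.

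Other treatments of the same arrays gave calls. After normexp correction for background, applied to mean pixel signals, 13 P450 genes were called, of which 12 lay above NPD (15.6%, against 10.7% of all genes) and 1, Cyp20a1, below (against 6.21%). Only 3 of these 13, Cyp27b1, Cyp2b15 and Cyp20a1, were measured genes. In the authors' deposited table of normalized log2 values, 0 P450 genes were called with diet alone (against 0.0681% of its rows), and 8 when slide was added as a block, a combination chosen after the data were seen. Of these 8, 7 lay above NPD (9.09%, against 3.98%) and 1 below (against 6.50%). The measured genes among them were Cyp27b1 (0.22, q = 0.0735), Cyp2b15 (0.55, q = 0.0816), Cyp11b3 (0.20, q = 0.0879) and Cyp2j4 (-0.32, q = 0.0969). The others, Cyp2c23, Cyp3a2, Cyp3a85-ps and Cyp46a1, were not well above background on any array and are given no fold. Cyp27b1 and Cyp2b15 were thus called in both of these settings, and no P450 gene was called in any other setting.

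**Figure D2:**
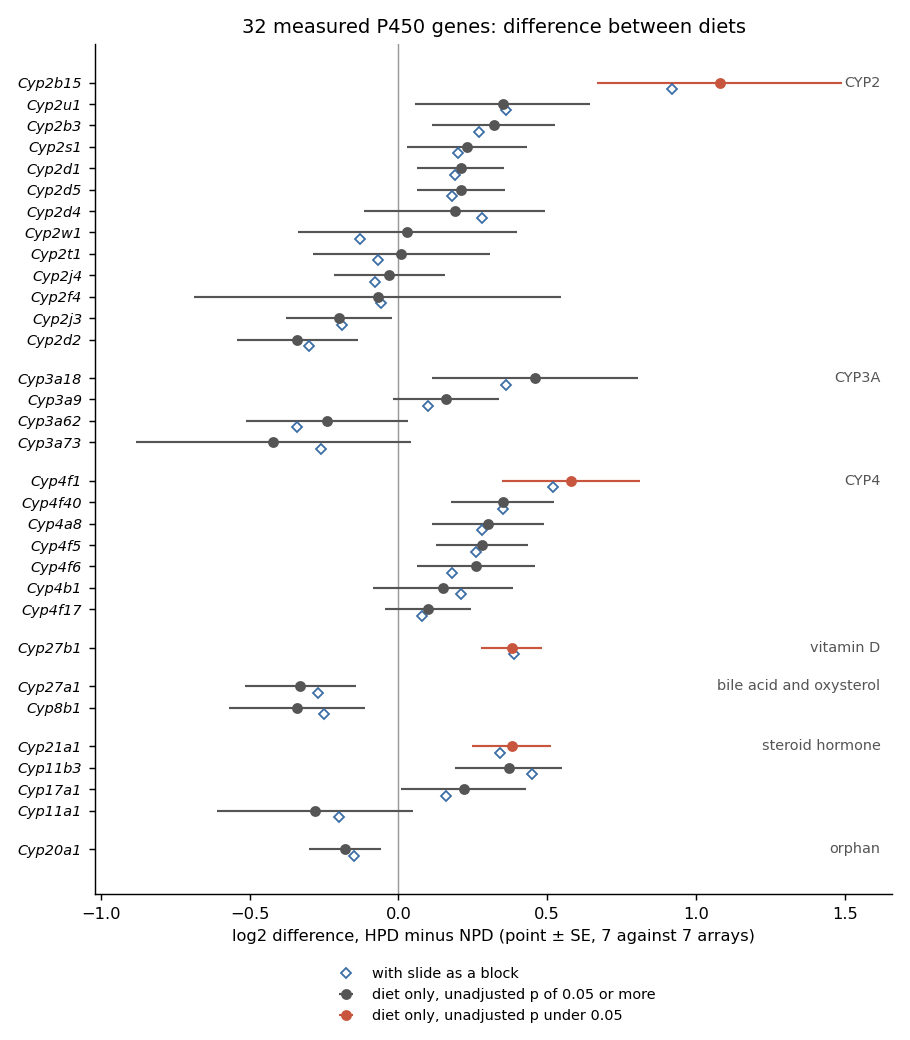
Difference between diets for the 32 measured P450 genes on the log2 scale (x axis, HPD minus NPD), grouped by family; filled points are the estimate ± SE from 7 against 7 arrays, orange where the unadjusted p was below 0.05, and open diamonds the estimate with slide as a block. All 7 CYP4 genes lie to the right of 0 and both bile acid genes to the left, and the estimates run from -0.42 (Cyp3a73) to 1.08 (Cyp2b15).

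In the CYP4 family, the fatty acid hydroxylases, each of the 7 measured genes had a mean above NPD, as did 58.2% of all measured genes. The differences lay between 0.10 and 0.58 with a median of 0.28, beside 0.06 over all measured genes. This CYP4 median was 0.13 with normexp correction and 0.12 in the deposited table. The 7 genes were read in the same rats, so their signs are not separate observations. The same 7 lay above NPD within slide 1 and within slide 2, and the sign held under each normalization of the scanner signal, except that the difference of Cyp4f17 was 0 to 2 decimals with normexp and -0.01 in the deposited table. None had a q-value below 0.1. The largest difference was in Cyp4f1, whose family acts on leukotrienes and long-chain fatty acids. Its values with NPD ran from 7.05 over a median of 7.21 to 8.16, and with HPD from 7.09 over 7.97 to 8.83, so the groups overlapped although 6 of 7 HPD arrays lay above the NPD mean. The difference was 0.58 ± 0.232 (SE, n = 7 against 7, q = 0.417, exact two-sided permutation p = 0.0338, and 0.0408 within slides, a test chosen after the data were seen). It was 0.48 within slide 1 and 0.56 within slide 2.

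Cyp4f40 ran from 2.21 over 2.66 to 3.04 with NPD and from 2.50 over 3.08 to 3.52 with HPD, a difference of 0.35 ± 0.174 (SE, q = 0.448). Cyp4f5 ran from 5.63 over 5.89 to 6.30 with NPD and from 5.78 over 6.19 to 6.53 with HPD (0.28 ± 0.155, q = 0.473). In both genes 5 of the 7 HPD arrays lay above the NPD mean and the ranges overlapped over most of their width. Cyp4f6 had NPD values from 6.01 over 6.15 to 6.95 and HPD values from 5.84 over 6.66 to 7.00 (0.26 ± 0.198, q = 0.531), and its level differed by 0.54 between slides (q = 0.0100). Cyp4f17 showed the smallest difference of the family, with 0.68, 1.16 and 1.54 as lowest, median and highest value with NPD and 0.84, 1.22 and 1.44 with HPD (0.10 ± 0.144, q = 0.738).

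The measured Cyp4f genes were neighbours. Per the file headers, positions refer to the rat genome build rn4, and the 5 probes lay on chromosome 7 from chr7:13111345-13111404 (Cyp4f17) over Cyp4f5, Cyp4f40 and Cyp4f1 to chr7:13609105-13609164 (Cyp4f6). Cyp4f39 and Cyp4f4, whose probes lay in or beside the same stretch (chr7:13072439-13072498 and chr7:13309322-13309381), were above background on no array. Measured members and members below background were thus interspersed along the cluster.

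Cyp4a8, a fatty acid hydroxylase gene, ran from 6.69 over 6.74 to 7.67 with NPD and from 6.76 over 7.30 to 7.68 with HPD (0.30 ± 0.188, q = 0.504). A single NPD array, replicate 5, stood at 7.67 while the other NPD arrays were at or below 6.86. A second Cyp4a8 probe was above background on no array, and the probe named Cyp4a2, also below background, lay between both Cyp4a8 probes on chromosome 5, so which transcript gave the signal is uncertain. Cyp4b1, which acts on shorter fatty acids and on aromatic amines, ran from -0.09 over 0.40 to 0.95 with NPD and from -0.24 over 0.72 to 1.21 with HPD (0.15 ± 0.235, q = 0.759).

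Among the vitamin D genes, Cyp27b1, which makes the active hormone from its circulating precursor, was measured on every array, while Cyp24a1, which inactivates the hormone, was above background on none and Cyp2r1, which makes the precursor, on 2 arrays of each diet. Cyp27b1 values ran from -0.23 over -0.13 to 0.27 with NPD and from 0.13 over 0.28 to 0.42 with HPD. All 7 HPD arrays lay above the NPD mean, and of the NPD arrays only replicate 1, at 0.27, reached into the HPD range. The difference was 0.38 ± 0.101 (SE, n = 7 against 7, q = 0.417, exact two-sided permutation p = 0.00175 over all splits and 0.00163 within slides). It was 0.33 within slide 1 and 0.45 within slide 2, and the level itself differed by -0.07 between slides. The spread of Cyp27b1 between rats of the same diet was the lowest of the measured P450 genes, with a pooled SD of 0.13.

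Of the steroid hormone genes, 4 of 6 were measured in these cells: Cyp11a1, which starts the pathway from cholesterol, Cyp17a1, Cyp21a1 and Cyp11b3. Cyp21a1, the hydroxylase on the way to corticosterone and aldosterone, ran from 1.12 over 1.30 to 1.84 with NPD and from 1.54 over 1.79 to 2.08 with HPD. All 7 HPD arrays lay above the NPD mean, and the 2 highest NPD arrays, on slide 2, overlapped the HPD range. The difference was 0.38 ± 0.132 (SE, q = 0.417, exact permutation p = 0.0117, and 0.00245 within slides), 0.38 within slide 1 and 0.29 within slide 2.

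Cyp11b3, of the subfamily that completes corticosteroid synthesis in the adrenal, ran from -0.40 over -0.11 to 0.36 with NPD and from -0.06 over 0.17 to 0.89 with HPD (0.37 ± 0.179, q = 0.445). Its level was 0.54 lower on slide 2 than on slide 1 in the fit of both, and within each slide every HPD array lay above every NPD array. The exact permutation p was 0.0676 over all splits and 0.000816 within slides, which is the smallest that the 1225 regroupings allow. A second Cyp11b3 probe was above background on no array. Cyp17a1 (0.22 ± 0.210, q = 0.604) and Cyp11a1 (-0.28 ± 0.328, q = 0.669) had differences close to their errors, and that of Cyp11a1 was -0.44 within slide 1 and 0.04 within slide 2.

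**Figure D3:**
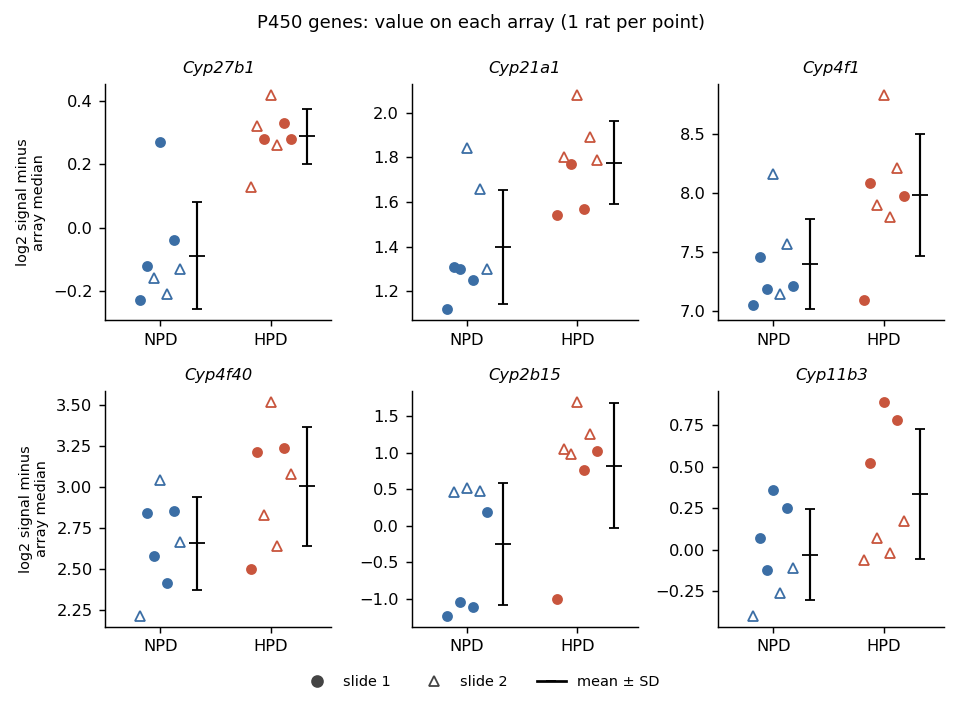
Value of 6 P450 genes on each array (y axis, log2 signal minus the array median, a separate scale per gene), with 7 NPD rats in blue and 7 HPD rats in orange, filled circles for slide 1, open triangles for slide 2, and the mean ± SD beside the points. The ranges of the diets overlap in each of the 6 genes; in Cyp27b1 a single NPD rat reaches the HPD range, and in Cyp11b3 the overlap is between slides.

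Neither measured bile acid gene passed the test. Cyp8b1 counts as measured through the NPD arrays alone, the group in which its mean was higher, so its direction is partly set by that filter. Cyp27a1, which oxidises the side chain of sterols, ran from 2.22 over 2.55 to 3.18 with NPD and from 1.88 over 2.39 to 2.92 with HPD (-0.33 ± 0.186, q = 0.475). Cyp8b1, which directs bile acid synthesis towards cholic acid, ran from -1.74 over -0.60 to -0.24 with NPD and from -1.58 over -1.19 to -0.69 with HPD (-0.34 ± 0.228, q = 0.515). In each gene 6 of 7 HPD arrays lay below the NPD mean. Within slide 1 the differences were -0.21 and -0.54, and within slide 2 they were -0.34 and 0.03, so that the sign of the Cyp8b1 difference was not the same on both slides.

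Across CYP2, 9 of the 13 measured genes had a mean above NPD and 4 below, with a median of 0.19. These counts include Cyp2b3 (above) and Cyp2d2 (below), which passed the filter only through the group with their higher mean. Cyp2b15 had the largest difference of all measured P450 genes. Its values ran from -1.24 over 0.19 to 0.51 with NPD and from -1 over 1.03 to 1.70 with HPD. All HPD arrays but replicate 1, which lay among the lowest of either diet, were above the highest NPD array. The difference was 1.08 ± 0.412 (SE, q = 0.417, exact two-sided permutation p = 0.0402, and 0.0204 within slides), and 1.38 (unadjusted p = 0.000996) without HPD replicate 1. The level of Cyp2b15 was also 1.13 higher on slide 2 than on slide 1 (q = 0.0127), and the difference between diets was 1.07 within slide 1 and 0.77 within slide 2.

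The array carries 2 probes named Cyp2b15, which lie 26901 bases apart in rn4, at chr1:81879199-81879258 (the brighter, above background on every array) and chr1:81852298-81852357 (above background on 5 NPD and 6 HPD arrays), both on the plus strand. Their first 30 aligned bases are shown because they are near copies, with the mismatches in capitals:
Cyp2b15 brightest probe: taacagtggtATaAgcaaaataccctcacc
Cyp2b15 other probe: taacagtggtGCaGgcaaaataccctcacc
Over the 58 aligned bases the probes differed at 6. The second probe had a difference of 1.16 (unadjusted p = 0.0631, q = 0.446), beside 1.08 for the first. It lies next to the probes named Cyp2b12 (chr1:81853118-81853177 and chr1:81853126-81853185), neither of which was above background on any array. Whether transcripts of related Cyp2b copies share signal on these probes was not tested, so the gene behind the Cyp2b15 values is uncertain.

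The brightest probes of Cyp2d1 and Cyp2d5, members of the subfamily that oxidises amine drugs, shared 55 of their 60 bases, at chr7:120769703-120769762 and chr7:120760436-120760495 (rn4, minus strand). Their last 30 bases are given to show how little sets them apart, with the bases outside the shared stretch in capitals:
Cyp2d1: ctgagccacgtttaataaaccagtcttTTG
Cyp2d5: gagccacgtttaataaaccagtcttGAGGC
The values of both genes were alike. Cyp2d1 ran from 7.05 over 7.16 to 7.49 with NPD and from 6.93 over 7.43 to 7.83 with HPD (0.21 ± 0.146, q = 0.515). Cyp2d5 ran from 7.13 over 7.21 to 7.56 with NPD and from 7.07 over 7.48 to 7.92 with HPD (0.21 ± 0.147, q = 0.515). Whether transcripts of either gene give signal on the other's probe was not tested, so the values may not be separate measurements. No other brightest P450 probe shared 20 or more bases with a probe of another P450 gene, and that of Cyp4a8 shared 28 with an unnamed probe.

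The neighbouring genes of the Cyp2d cluster gave other values. Cyp2d4 ran from 1.58 over 2.50 to 2.78 with NPD and from 0.99 over 2.78 to 3.19 with HPD (0.19 ± 0.304, q = 0.765). Cyp2d2 was above background on 7 NPD arrays but on 4 HPD arrays, with values from -1.54 over -0.91 to -0.79 and from -2.11 over -1.36 to -0.68 (-0.34 ± 0.204, q = 0.492). It counts as measured through the NPD arrays alone, so its direction is partly set by that filter. Cyp2d3 was above background on 4 arrays of each diet.

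The arachidonic acid epoxygenases Cyp2j3 and Cyp2j4 were each measured by 2 probes that gave different estimates. For Cyp2j4, the brighter probe gave -0.03 ± 0.187 (q = 0.946) and the other -0.29 ± 0.135 (unadjusted p = 0.0468, q = 0.437). For Cyp2j3, the brighter probe ran from 3.31 over 3.60 to 4.14 with NPD and from 3.09 over 3.41 to 4.16 with HPD (-0.20 ± 0.178, q = 0.583), and the other gave -0.58 ± 0.279 (unadjusted p = 0.0547, q = 0.441). All 4 estimates were below 0, and the choice of probe decided their size. The brighter Cyp2j3 probe (chr5:116744736-116744795, rn4, minus strand) reads through the haem-binding signature shared by P450 enzymes and was the only P450 probe of the 94 to do so. It is printed whole, with the codon of the cysteine that holds the haem iron, from base 43, in capitals:
Cyp2j3: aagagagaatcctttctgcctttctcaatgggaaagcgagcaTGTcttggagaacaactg

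Of the remaining CYP2 genes, Cyp2f4, whose enzyme is known from the airways, varied most between rats. It ran from 2.67 over 4.40 to 4.94 with NPD and from 0.80 over 4.32 to 5.42 with HPD (-0.07 ± 0.616, q = 0.962). Cyp2s1, an epithelial P450, ran from 0.52 over 0.89 to 1.35 with NPD and from 0.62 over 1.03 to 1.83 with HPD (0.23 ± 0.202, q = 0.576), and its other probes gave -0.06 and 0.16. Cyp2u1, a fatty acid hydroxylase, gave 0.35 ± 0.295 (unadjusted p = 0.256), from 0.04 within slide 1 to 0.68 within slide 2. Cyp2b3 gave 0.32 ± 0.206 (q = 0.515), but it counts as measured through the HPD arrays alone, so its direction is partly set by that filter. A second Cyp2b3 probe, above background on 1 array of each diet, gave -0.01. Cyp2t1 (0.01 ± 0.297) and Cyp2w1 (0.03 ± 0.367) had differences far below their errors, with q-values of 0.989 and 0.968, and became -0.07 and -0.13 with slide as a block.

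Cyp2c7 also had an unadjusted p below 0.05 (exact permutation p = 0.0274, and 0.0212 within slides, limma q = 0.417), but it was not well above background on any array, so no fold is given. This probe was read from 1 spot per array. The other Cyp2c7 probes, also below background on every array, had unadjusted limma p-values of 0.189 and 0.185.

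The 4 measured CYP3A genes were split, with 2 means above NPD and 2 below. Cyp3a9 ran from 6.98 over 7.38 to 7.59 with NPD and from 6.97 over 7.54 to 8.22 with HPD (0.16 ± 0.178, q = 0.650). Cyp3a62 ran from 4.66 over 4.87 to 5.37 with NPD and from 4.01 over 4.62 to 5.70 with HPD (-0.24 ± 0.272, q = 0.658), with -0.79 within slide 1 and 0.10 within slide 2. Single arrays moved all 4 estimates. Without HPD replicate 6, Cyp3a9 was at 0.05 and Cyp3a62 at -0.41. Cyp3a18 (0.46 ± 0.346, q = 0.521) was at 0.21 without HPD replicate 6, and Cyp3a73 (-0.42 ± 0.462, q = 0.653) was at -0.79 (unadjusted p = 0.0364) without HPD replicate 1. A second Cyp3a73 probe was above background on no array, and the mean over the probes of this gene gave -0.09. Cyp20a1, an orphan P450 with no settled substrate, ran from 2.88 over 3.08 to 3.37 with NPD and from 2.54 over 2.94 to 3.20 with HPD (-0.18 ± 0.121, q = 0.515).

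The measured P450 genes varied between rats of the same diet with a median pooled SD of 0.39 on the log2 scale, beside 0.30 over all measured genes. The range was wide, from 0.13 in Cyp27b1, lower than all but 3.33% of measured genes, over 0.19 in Cyp20a1 and 0.22 in Cyp21a1, to 0.84 in Cyp2b15, 0.95 in Cyp3a73 and 1.27 in Cyp2f4, which exceeded 99.5% of measured genes. A difference of 0.38 therefore came with an unadjusted p of 0.00192 in Cyp27b1, whereas -0.42 in Cyp3a73 came with 0.376.

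**Figure D4:**
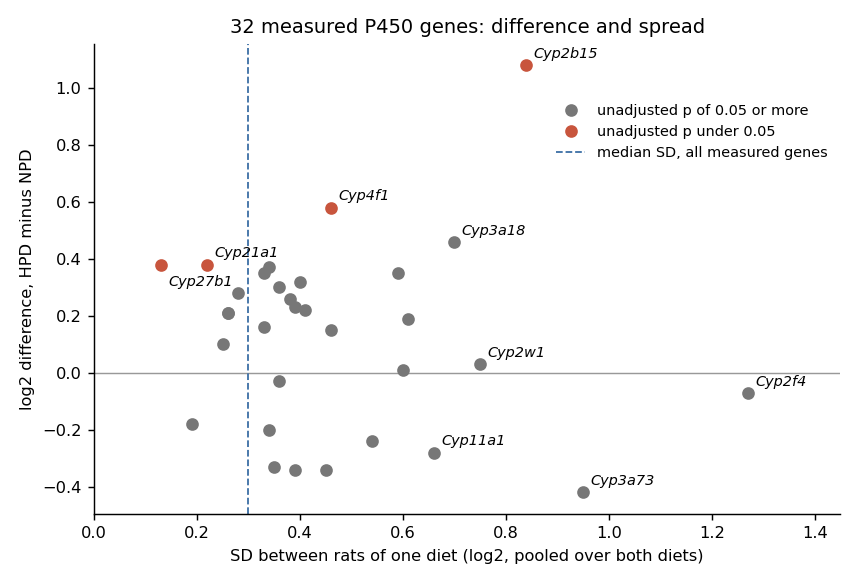
Difference between diets (y axis, log2, HPD minus NPD) against the SD between rats of the same diet (x axis, log2, pooled over both diets) for the 32 measured P450 genes, orange where the unadjusted p was below 0.05; the dashed line is the median SD of all measured genes (0.30). Cyp27b1 and Cyp21a1 stand at a small spread, and Cyp2b15 combines the largest difference with a pooled SD of 0.84.

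The probes behind 3 of the genes with an unadjusted p below 0.05 are shown by the last 30 of their 60 bases, since each gene's value here rests on this probe alone, with the polyadenylation signal AATAAA in capitals where it occurs:
Cyp27b1: cattttaaagctccccttggctgttctgct
Cyp4f1: tttccattattttgacctacattcaaatca
Cyp21a1: ccgctAATAAAcggtcttttcaagattccc
The Cyp4f1 probe lies at chr7:13589691-13589750 (minus strand) and that of Cyp21a1 at chr20:4128459-4128518 (plus strand) in rn4, and no position is used for that of Cyp27b1. The probe sequences, read on the strand printed, held AATAAA in 6 of the 32 brightest probes of measured P450 genes (18.8%), in 7 of all 94 P450 probes (7.45%) and in 8.39% of all probes. The share among the brightest probes of all measured genes was not taken, so the 18.8% has no like value beside it. It also counts both the Cyp2d1 and the Cyp2d5 probe, which hold the signal in their shared stretch.

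P450 enzymes depend on electron donors and on haem, are controlled by nuclear receptors, and pass their products to other enzymes. Of 27 such genes listed by role, 26 were on the array by symbol and 25 were measured. None was called (0 of 26, where 0.0533% of all genes were), and at an unadjusted p below 0.05 2 lay above NPD (against 6.05% of all genes) and 1 below (against 5.48%), with a median difference of 0.07 over the list.

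Of the 8 genes for electron donors and haem supply, Alas1, the rate-limiting enzyme of haem synthesis, had the largest difference. It ran from 8.03 over 8.67 to 9.09 with NPD and from 8.84 over 9.34 to 10.13 with HPD, and all 7 HPD arrays lay above the NPD mean. The difference was 0.69 ± 0.227 (SE, n = 7 against 7, q = 0.417, exact two-sided permutation p = 0.0134, and 0.00163 within slides), 0.53 within slide 1 and 0.65 within slide 2. The P450 reductase Por, which feeds electrons to the microsomal P450s, gave -0.15 ± 0.121 (q = 0.545). The cytochrome b5 genes Cyb5a (-0.37, q = 0.472) and Cyb5b (-0.13, q = 0.702) and the reductase Cyb5r3 (-0.17, q = 0.515) had means below NPD, and a second Cyb5b probe gave -0.58 (unadjusted p = 0.0124). The mitochondrial donors Fdx1 (0.16, q = 0.675) and Fdxr (0.11, q = 0.781) and the haem-binding Pgrmc1 (0.15, q = 0.557) had means above it.

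The soluble epoxide hydrolase gene Ephx2, whose enzyme hydrolyses the fatty acid epoxides made by CYP2 epoxygenases, ran from 1.73 over 2.32 to 2.85 with NPD and from 0.98 over 1.57 to 2.13 with HPD. All 7 HPD arrays lay below the NPD mean. The difference was -0.63 ± 0.212 (SE, q = 0.417, exact permutation p = 0.0175, and 0.00163 within slides), -0.48 within slide 1 and -0.59 within slide 2. The microsomal hydrolase Ephx1 gave -0.08 ± 0.133 (q = 0.769). Alas1 and Ephx2 were both called after normexp correction, where 2 of the listed 26 genes were (against 10.7% of all genes above NPD and 6.21% below), and in the authors' table once slide was a block, where Cyb5b and Cyb5r3 brought the number to 4 (against 3.98% above and 6.50% below).

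Of the 9 nuclear receptor genes, Nr1i3 (CAR), a xenobiotic receptor, ran from -0.70 over 0.37 to 0.64 with NPD and from -0.25 over 0.91 to 1.6 with HPD (0.73 ± 0.287, q = 0.417, exact permutation p = 0.0379, and 0.0155 within slides), while its second probe gave -0.23 (q = 0.566). Nr1i2 (PXR), which controls CYP3A genes, ran from 6.74 over 6.90 to 7.41 with NPD and from 6.80 over 7.33 to 7.54 with HPD (0.30 ± 0.143, q = 0.441). Nr0b2 (SHP), a repressor of bile acid synthesis, gave 0.61 ± 0.305 (q = 0.446). The other 6 lay between 0.03 (Nr1h3) and 0.21 (Hnf4a), among them Vdr, the vitamin D receptor, at 0.19 ± 0.125 (q = 0.515).

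The aryl hydrocarbon receptor gene Ahr was measured on every array (-0.17 ± 0.175, q = 0.635), although the CYP1 genes were not. Its repressor Ahrr (-0.40, q = 0.573), its partner Arnt (-0.13, q = 0.838, above background on 6 NPD and 5 HPD arrays) and the targets Aldh3a1 (-0.47, q = 0.503) and Nqo1 (0.20, q = 0.817) did not pass the test. The P450-fold enzymes named otherwise, thromboxane synthase Tbxas1 (0.21, q = 0.550) and prostacyclin synthase Ptgis (0.04, q = 0.960), did not either.

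**Figure D5:**
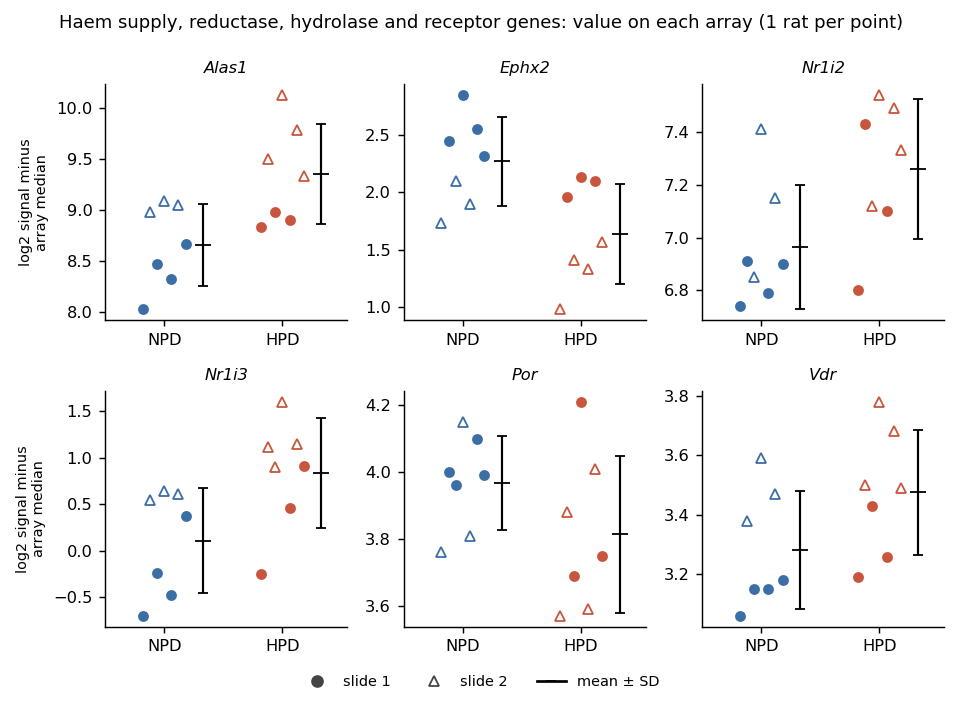
Value of 6 partner genes of the P450 system on each array (y axis, log2 signal minus the array median, a separate scale per gene), with NPD rats in blue and HPD rats in orange, filled circles for slide 1, open triangles for slide 2, and the mean ± SD beside the points. All HPD rats lie above the NPD mean in Alas1 and below it in Ephx2, and the ranges of the diets overlap in each of the 6 genes.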

How the data were processed

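RNA of colonocytes from 7 NPD and 7 HPD rats was measured on 1-colour arrays, and diet was taken from the sample labels. The authors deposited the scanner output (Agilent Feature Extraction 10.7.3.1, per the labels), with linear spot intensity, and normalized log2 values, tabulated by gene name, for which the study's methods state log2 transformation, centring by array and averaging of spots. The signal column and the centring statistic of those values are not stated. Marks for a signal well above background are whole-number flags in other columns of the deposited scanner output. Control and outlier spots were left out, the processed signal was log2-transformed, averaged over the spots of a probe and centred on the array median, and a limma fit (version 3.58.1, R 4.3.3, data.table version 1.17.8, jsonlite 2.0.0) compared the diets. P-values were adjusted by Benjamini-Hochberg over 30367 probes, with 0.1 as threshold. The brightest probe stood for a gene. Every measured P450 gene and every one with an unadjusted p below 0.05 is named, 33 in all, and each was also tested by exact permutation over 1716 splits (smallest possible p 0.000583) and, chosen after the data were seen, over 1225 regroupings within slides, unadjusted. The number of arrays limits the precision. Probe sequences and rn4 positions are those of the scanner output. Alternatives were other centring and normalization, normexp (offset 50), only probes above background, slide or replicate number as a block, each slide alone, the deposited table, the mean of a gene's probes and leaving out each array. The fits were tested on simulated data. The members and gene lists were chosen with earlier results of these data known. Rats removed as outliers by the authors were not analysed here.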

Additional observations from a re-analysis of the deposited data

Results flagged for a closer look

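In 66 sets of 7 arrays (33 P450 genes, 2 diets), the highest or lowest array was tested for its distance from the others by Dixon's ratio, which chance exceeds in about 1 in 20 sets, and 6 sets exceeded it. For Cyp27b1, NPD replicate 1 stood at 0.27 and the next NPD array at -0.04, and the difference between diets was 0.38 with it and 0.44 without it. For Cyp2b15, HPD replicate 1 stood at -1 and the next HPD array at 0.76 (1.08 with it, 1.38 without). Cyp2b3 had NPD replicate 2 at -2.34 (0.32 with it, 0.16 without). Cyp3a18 had HPD replicate 6 at 1.65, the next array being at 0.01 (0.46 with it, 0.21 without). Cyp3a73 had HPD replicate 1 at 1.58 and the next array at -0.84 (-0.42 with it, -0.79 without). Cyp4a8 had NPD replicate 5 at 7.67 and the next array at 6.86 (0.30 with it, 0.44 without, unadjusted p = 0.0153).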

How the results depend on the processing

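The count of called P450 genes was 0 in all settings except normexp background correction (13) and the deposited table blocked on slide (8), which called 2 and 4 partner genes. The count above NPD at an unadjusted p below 0.05 was 5, and 6 with quantile normalization, slide as a block, the mean of a gene's probes or within slide 1, 7 with cyclic loess, 30 with normexp, 18 in the deposited table, 18 there with slide as a block, 2 within slide 2, 14 with the replicate block and 5 to 9 with 1 array left out (9 without HPD replicate 1, HPD replicate 5 or NPD replicate 5, 8 without NPD replicate 6). The count below was 0, and 2 with normexp, 3 in the deposited table, 5 there with slide as a block, 2 within slide 1, 1 with the replicate block and 0 to 2 with 1 array left out (2 without HPD replicate 1 or NPD replicate 3, 1 without HPD replicate 3 or NPD replicate 7). The share over all genes at this threshold was taken for the main fit only (6.05% above NPD and 5.48% below). The counts of the other settings have no such share beside them and are not read as a result about P450 genes. With normexp they include genes above background on no array, such as Cyp1a1. Why these settings differ was not tested. The block of replicate numbers rests on a shared number in the labels. The deviations of same-numbered arrays correlated between -0.0899 (replicate 4) and 0.386. Same-numbered arrays lay on the same slide except in replicate 4, so this block also takes in slide. The median of the measured genes was 0.07 with normexp and in the deposited table and up to 0.25, and 0.13 to 0.25 with 1 array left out. Differences turned sign in genes whose estimate was near 0 or rested on a slide. Cyp2t1 gave -0.07 with quantile normalization, -0.04 with cyclic loess, -0.13 with normexp, -0.07 with slide as a block and permuted within slides, -0.17 within slide 1, -0.15 in the deposited table and -0.20 there with slide as a block. Cyp2w1 gave -0.13 with slide as a block and permuted within slides, -0.41 within slide 2 and -0.04 in the deposited table blocked on slide. Cyp4f17 gave -0.01 in the deposited table with and without slide, and Cyp3a9 -0.02 with slide. Within slide 1, Cyp2f4 gave 0.24, and within slide 2, Cyp11a1 gave 0.04, Cyp3a62 0.10 and Cyp8b1 0.03. With 1 array left out, Cyp2f4 ranged from -0.30 to 0.47, Cyp2j4 from -0.12 to 0.07, Cyp2t1 from -0.16 to 0.16 and Cyp2w1 from -0.14 to 0.22. Differences of probes below background have no scale, and for those near it the signal over background limits precision.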
